A study of Caenorhabditis elegans with 4 samples.

Results

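The neuropeptide and insulin-like genes of Caenorhabditis elegans were taken as the protein-coding genes whose symbol begins with flp-, nlp- or ins-. They number 147 of the 19971 protein-coding genes on the 5 autosomes and X in the WBcel235 gene table, with 31 flp, 78 nlp and 38 ins genes. The names alone decided membership. The question was how many of them lie under sites bound by MRG-1, a chromodomain protein, in a chromatin immunoprecipitation and sequencing (ChIP-seq) experiment on adult worms. Every sample came from hermaphrodites with the fem-2(b245) allele of III, in a gene that acts in sex determination, and were kept at 20 °C, so the 2 ChIP samples and 2 input samples share this genotype and no other strain is compared. The antibody was a rabbit polyclonal to MRG-1, and whole animals were used, so a peak does not say in which cells the protein was bound. The labels name a young adult stage with a germline, while their growth protocol describes gravid adults. No values of the input samples were used, and the ChIP samples are called replicate 1 and replicate 2.

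Neuropeptides and insulin-like peptides are secreted signals. The flp genes encode precursors of FMRFamide-like peptides, the nlp genes encode precursors of many other peptide families, and the ins genes encode relatives of insulin. The precursors are cut, trimmed and often amidated in the secretory pathway of neurons and of some gut and skin cells, packed into dense-core vesicles, and released to act mostly on G protein-coupled receptors, while insulin-like peptides act through the receptor DAF-2. MRG-1 belongs to the MRG15 family, whose chromodomain binds methylated histone tails, and is known in the worm for its role in the germline.

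Replicate 1 held 2769 peaks over 16.7 Mb and replicate 2 held 3895 peaks over 13.1 Mb. One more list, deposited for the whole series, held 12147 peaks over 14.8 Mb and is not independent of the replicates. No read counts came with the lists, so depth is unknown. A gene was called marked where a peak overlapped its span by at least 1 bp. Peaks are on WormBase WS220 and gene spans on WBcel235, and the spans were set against the peaks unchanged, on the premise that positions in the builds differ by no more than about 200 bp. Gene positions are therefore not printed, and calls that rest on a few bases are uncertain. With 2 samples of a single group, no test over samples exists, and shares of genes are described beside the same share over all genes.

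Few of the peptide genes were marked. In replicate 1, 15 of the 147 met a peak (10.2%), against 30.2% of all protein-coding genes. In replicate 2, 11 did (7.48%), against 28.1% of all genes. The mean share was 8.84% ± 1.92 (SD, n = 2 replicates) for the peptide genes and 29.1% ± 1.50 for all genes, so the gap was larger than the spread between replicates in either. The series-wide list marked 13 (8.84%), against 32.7% of all genes. All of the marked genes were autosomal. On the autosomes alone, 15 of 110 were marked in replicate 1 (13.6%, exact 95% interval 7.84 to 21.5) and 11 in replicate 2 (10.0%, 5.10 to 17.2), against 33.6% and 32.3% of all autosomal genes. The series-wide list marked 13 of the 110 (11.8%), against 36.4%. These intervals treat genes as independent, which neighbouring genes are not. Where at least 50% of the span had to be covered, 9 and 7 of the 110 were marked, against 25.6% and 23.1% of all autosomal genes.

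**Figure D1:**
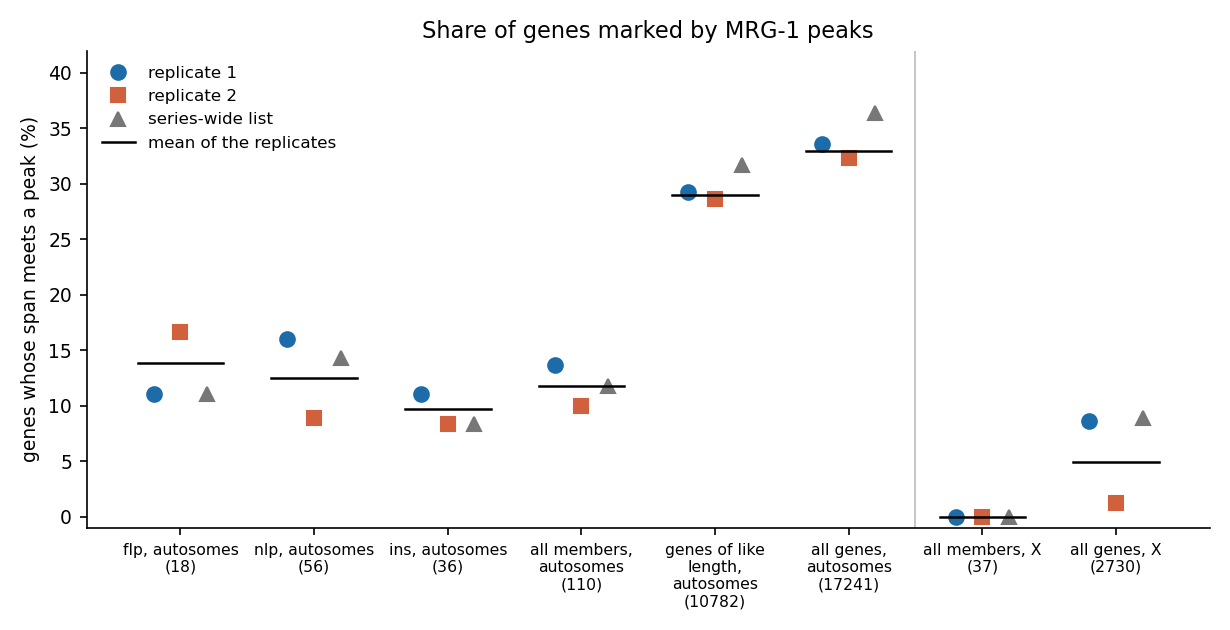
Percent of genes whose span met an MRG-1 peak (y axis) for each class of peptide gene and for all genes, with the number of genes in brackets; points are the 2 replicates and the series-wide list, and lines are replicate means. The 3 autosomal classes sit between 8.33% and 16.7% in the replicates, below the 32.3% and 33.6% of all autosomal genes, and no peptide gene on X was marked.

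The 3 classes could not be told apart. Among autosomal flp genes, 2 of 18 were marked in replicate 1 (11.1%) and 3 in replicate 2 (16.7%), a mean of 13.9% ± 3.93 (SD, n = 2). Among autosomal nlp genes, 9 of 56 were marked in replicate 1 (16.1%) and 5 in replicate 2 (8.93%), a mean of 12.5% ± 5.05. Among autosomal ins genes, 4 of 36 were marked in replicate 1 (11.1%) and 3 in replicate 2 (8.33%), a mean of 9.72% ± 1.96. The order of the classes changed between replicates: nlp genes had the highest share in replicate 1 and flp genes in replicate 2. The exact 95% intervals in replicate 1 ran from 1.38 to 34.7% for flp, from 7.62 to 28.3% for nlp and from 3.11 to 26.1% for ins genes, and overlapped widely.

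On X, 0 of 37 peptide genes met a peak of any of the 3 lists, which allows a share of up to 8.11% by a floor of 3 counts and 9.49% by the exact 95% interval. Among all X genes, 8.61% were marked by replicate 1, 1.25% by replicate 2, 1.14% by both and 8.94% by the series-wide list, so within the exact interval 37 genes are too few to show whether the peptide genes differ from other X genes. The peptide genes are common on X: 25.2% of them lie there, against 13.7% of all protein-coding genes. The classes differ in this, with 41.9% of flp genes, 28.2% of nlp genes and 5.26% of ins genes on X. The X gene closest to a replicate 1 peak was flp-20, at 1255 bp, and 2 more, flp-32 and nlp-14, lay within 5 kb. In replicate 2 the closest was nlp-101, at 13701 bp. The median distance from a peptide gene on X to the nearest peak was 42.1 kb in replicate 1 and 252 kb in replicate 2, against 29.1 and 249 kb for all X genes.

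Shares were also counted among genes of like length and on each chromosome, where several counts rest on 1 to 3 marked genes. Peptide genes are short, with a median span of 903 bp against 2006 bp for all genes, and a short span meets a peak less easily. Among autosomal genes whose spans lie between the 10th and 90th percentile of the peptide genes' spans, 29.3% and 28.7% were marked in replicates 1 and 2. Of the 82 autosomal peptide genes in that range, 12 were marked in replicate 1 (14.6%) and 9 in replicate 2 (11%). Under 1 kb, 8 and 7 of 56 peptide genes were marked, 14.3% and 12.5%, against 27.1% and 26.7% of all autosomal genes under 1 kb. From 1 to 2 kb, 3 and 2 of 28 were marked, against 27.4% and 26.5%, and from 2 to 4 kb 2 and 1 of 16, against 35.2% and 33.3%. At 4 kb and over, 2 and 1 of 10 were marked, against 47.4% and 45.5%. By chromosome, the share lay below that of all genes on each autosome in both replicates. On I, 4 and 3 of 19 peptide genes were marked, against 46.5% and 46.8% of all genes there. On III, 3 of 18 were marked in each replicate, against 46.8% and 49.5%. The counts were 3 and 3 of 29 on II (33% and 31.3% of all genes), 3 and 1 of 21 on IV (32.7% and 30.4%) and 2 and 1 of 23 on V (20.2% and 16.8%). In the middle 50% of the autosomes, 9 and 8 of 61 were marked, against 38.7% and 39.5% of all genes there. In the outer 25% on each side, 6 and 3 of 49 were, against 27.3% and 23.3%.

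The replicates shared 10 marked peptide genes: flp-1, flp-16, nlp-4, nlp-12, nlp-15, nlp-36, nlp-48, ins-10, ins-15 and ins-17. They make up 6.80% of the 147, against 24.4% of all genes marked in both. All are autosomal and make up 9.09% of the 110, against 28.1% of all autosomal genes marked in both. Replicate 1 alone marked nlp-18, nlp-40, nlp-46, nlp-56 and ins-34, and replicate 2 alone marked flp-27. These are 5 and 1 of 110 autosomal peptide genes, beside 5.49% and 4.2% of all autosomal genes marked in replicate 1 alone and in replicate 2 alone. The series-wide list marked 12 of these 16, and also ins-37, which neither replicate marked. In all, 17 peptide genes were marked in at least 1 list.

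**Figure D2:**
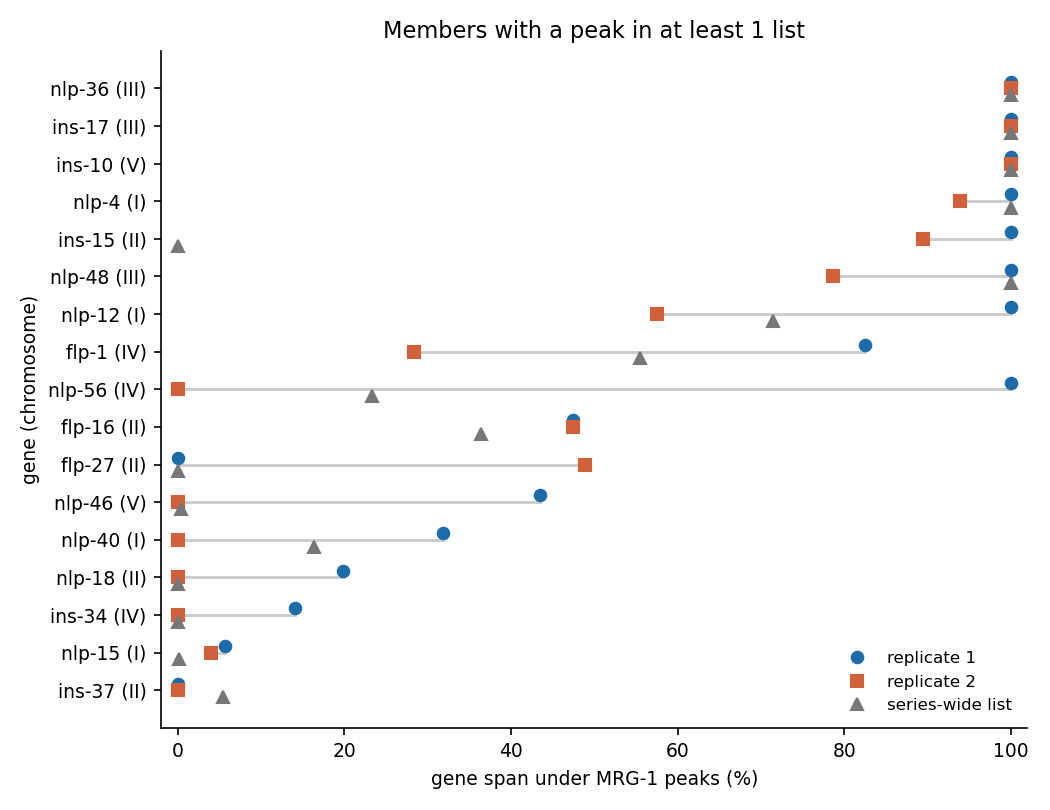
Percent of the gene span under peaks (x axis) in each list for the 17 peptide genes with a peak in at least 1 list, each with its chromosome. Grey lines join the 2 replicates, and nlp-36, ins-17 and ins-10 are covered whole in all 3 lists while 6 genes are at 0% in 1 replicate.

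Among the FMRFamide-like genes, flp-1 encodes several related peptides that act in locomotion and egg laying. It was covered over 82.5% of its 1424 bp in replicate 1 and 28.4% in replicate 2, a mean of 55.5% ± 38.2 (SD, n = 2). The peaks ran from 9144954 to 9149314 of IV in replicate 1 and from 9145724 to 9148878 in replicate 2. Each also met daf-10, a gene for intraflagellar transport, rpb-12, a subunit of RNA polymerases, and aly-2, of the mRNA export family. The flp-16 gene was covered over 47.5% and 47.4% of its span, the closest agreement between replicates among the partly covered genes. Its peaks, at 13236414 to 13238491 and 13236417 to 13238033 of II, also met romo-1. In flp-27, replicate 2 had a peak of 814 bp inside the gene, at 5681825 to 5682638 of II, covering 48.9% of the span, while replicate 1 had none. That peak ranked low among replicate 2 peaks by the authors' score, at percentile 17.4. Of the 25 kb on each side of flp-27, replicate 1 covered 24.7% and replicate 2 covered 63.6%.

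Among the other neuropeptide genes, nlp-12 encodes cholecystokinin-like peptides released by a stretch-sensitive tail neuron. It was covered over 100% of its 576 bp in replicate 1 and 57.5% in replicate 2. The replicate 1 peak, at 1831134 to 1844250 of I, was 13117 bp wide and met 6 other protein-coding genes, among them rpl-27, a ribosomal protein gene, egl-30, which encodes the Gq alpha subunit, and emr-1, the emerin gene. The replicate 2 peak, at 1841913 to 1843714, met egl-30 and emr-1. The nlp-36 gene lay whole under peaks of 9675 bp and 8576 bp that also met dars-1, an aspartyl-tRNA synthetase gene, and ctr-9, of the Paf1 complex. The nlp-4 gene was covered over 100% and 93.9%, beside exos-3 of the RNA exosome. The nlp-48 gene was covered over 100% and 78.7%. Its replicate 1 peak of 14403 bp also reached rgr-1, a Mediator subunit gene, and tkr-1, a gene of the tachykinin receptor family. Its replicate 2 peak of 1174 bp met rgr-1 alone and ranked low by the authors' score, at percentile 10.6.

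The nlp genes marked in a single replicate were mostly covered at an edge. The nlp-56 gene was the exception: a replicate 1 peak of 21937 bp, over 10 genes in all, covered 100% of it, replicate 2 covered 0%, and the series-wide list covered 23.3% with a peak of 216 bp inside the gene. The intestinal peptide gene nlp-40, whose product sets off the expulsion step of defecation, was covered over 31.9% in replicate 1 and 0% in replicate 2. The values of replicates 1 and 2 were 43.5% and 0% for nlp-46 and 19.8% and 0% for nlp-18. The nlp-15 gene was marked in both replicates, but over 5.65% and 3.96% of its 7245 bp, by peaks that also met smu-1, a splicing gene. Several calls lay close to the limit of 1 bp. The series-wide list met nlp-46 by 5 bp and nlp-15 by 10 bp, while flp-22, called unmarked, was 72 bp from a replicate 1 peak and 373 bp from a replicate 2 peak. That list left flp-27, ins-15 and ins-34 unmarked at 13, 100 and 154 bp from a peak.

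Among the insulin-like genes, ins-17, whose product has been linked to dauer arrest, was covered over 100% in both replicates. Its peaks ran from 4471084 to 4478251 of III in replicate 1 and from 4470811 to 4478127 in replicate 2, and both also met ifet-1, a translational repressor of the germline, and rps-3A, a ribosomal protein gene. The ins-10 gene was covered over 100% in both replicates, under peaks of 6254 and 6150 bp on V that also met vps-39, a gene of endosome and lysosome fusion. The ins-15 gene was covered over 100% and 89.5% by peaks of 10565 and 10141 bp that each met 5 other genes, exos-8 and mrps-18.C among them. By the authors' score the peaks stood at percentile 88.8 in replicate 1 and 24.3 in replicate 2. The gene met no peak of the series-wide list, but the nearest lay 100 bp away, within the 200 bp allowed between builds. The ins-34 gene was covered over 14.1% in replicate 1 and 0% in replicate 2. The ins-37 gene met only a series-wide peak of 358 bp, over 55 bp. The other 33 ins genes met no peak in any list.

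Peaks over peptide genes were wide and shared with other genes. In replicate 1 each of the 15 peaks met at least 1 other protein-coding gene. Of all 2578 autosomal peaks of replicate 1, 942 met 1 gene alone and 74 met none. The median width of the 15 peaks was 7168 bp, against 4672 bp for all autosomal peaks, and they met a median of 4 genes, against 2. Any peak that meets a chosen gene tends to be wider than most, so this contrast is a description. In replicate 2 there were 12 such peaks, since nlp-4 met 2, with a median width of 2653.5 bp against 2177 bp. Only the smaller of the peaks over nlp-4, of 757 bp, met no other gene. Of all 3858 autosomal peaks of replicate 2, 2007 met 1 gene alone and 168 met none. The share of the peak that lay on the peptide gene varied widely. In replicate 1 it ran from 1.88% for ins-34 through 4.39% for nlp-12, 9.14% for ins-17 and 26.9% for flp-1 to 48.3% for flp-16, and it was largest for nlp-40, where the peak lay evenly on the gene and outside it. In replicate 2 it ran from 3.62% for ins-15 through 40.6% for nlp-48 and 61.9% for flp-16 to 100% for flp-27.

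Autosomal peptide genes that overlap another gene were marked more often than those that overlap none, and the same held for all autosomal genes. Of the 110 autosomal peptide genes, 22 share bases with another protein-coding span. Of these, 8 were marked in replicate 1 (36.4%) and 6 in replicate 2 (27.3%), against 47.2% and 45.0% of all autosomal genes that overlap another. Of the 88 that overlap none, 7 were marked in replicate 1 (7.95%) and 5 in replicate 2 (5.68%), against 28.9% and 27.9%. All 3 marked flp genes were among the overlapping ones. The whole span of flp-1 lies within that of daf-10, that of flp-27 within vps-13D and that of nlp-48 within rgr-1, so signal on them and on the host gene cannot be told apart. The overlap was short for others: flp-16 kept 2098 of its 2112 bp to itself, nlp-36 kept 445 of 456 bp and ins-10 kept 374 of 448 bp, and peaks covered such bases in both replicates.

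In both replicates, each marked peptide gene had a marked gene next to it. So did 95.8% and 93.6% of all marked autosomal genes in replicates 1 and 2, so this is common to marked genes. In the series-wide list ins-37 had no marked gene next to it. In replicate 1, 0 of the 69 autosomal peptide genes with neither adjacent gene marked met a peak, against 2.61% of all autosomal genes in that position, and in replicate 2 the figures were 0 of 75 and 3.79%. Shares this small leave few genes to be seen among 69 or 75. Where 1 adjacent gene was marked, 8 of 30 (26.7%) and 6 of 28 (21.4%) were marked, against 50.3% and 49.1% of all autosomal genes. Where both adjacent genes were marked, 7 of 11 (63.6%) and 5 of 7 (71.4%) were marked, against 92.9% and 90.5%. With 1 or both adjacent genes marked, the share was thus below that of all genes in both replicates. In replicate 1, 4 peptide genes met no peak although both adjacent genes did: flp-22 lay 72 bp from the nearest peak, nlp-69 880 bp, flp-27 1353 bp and nlp-20 1393 bp.

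Coverage was low on the peptide genes and in the nearest 1 kb, and higher farther away. In replicate 1 the autosomal peptide genes had on average 9.50% of their span under peaks and 10.3% of the first 1 kb outside it. The mean was 17.2% from 4 to 5 kb away and 18.3% from 40 to 50 kb. All autosomal genes ran the other way, with 26.2% in the span, 26.5% in the first 1 kb, 21.7% from 4 to 5 kb and 19.4% from 40 to 50 kb. In replicate 2 the peptide genes had 6.80% in the span, 5.97% in the first 1 kb, 12.7% from 4 to 5 kb and 14.6% from 40 to 50 kb. All autosomal genes in replicate 2 had 23.5%, 22.8%, 18.8% and 15.8% at the same places. The groups thus lay far apart in the span, at 8.15% ± 1.91 (SD, n = 2) for the peptide genes and 24.8% ± 1.94 for all autosomal genes, and close together at 40 to 50 kb.

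**Figure D3:**
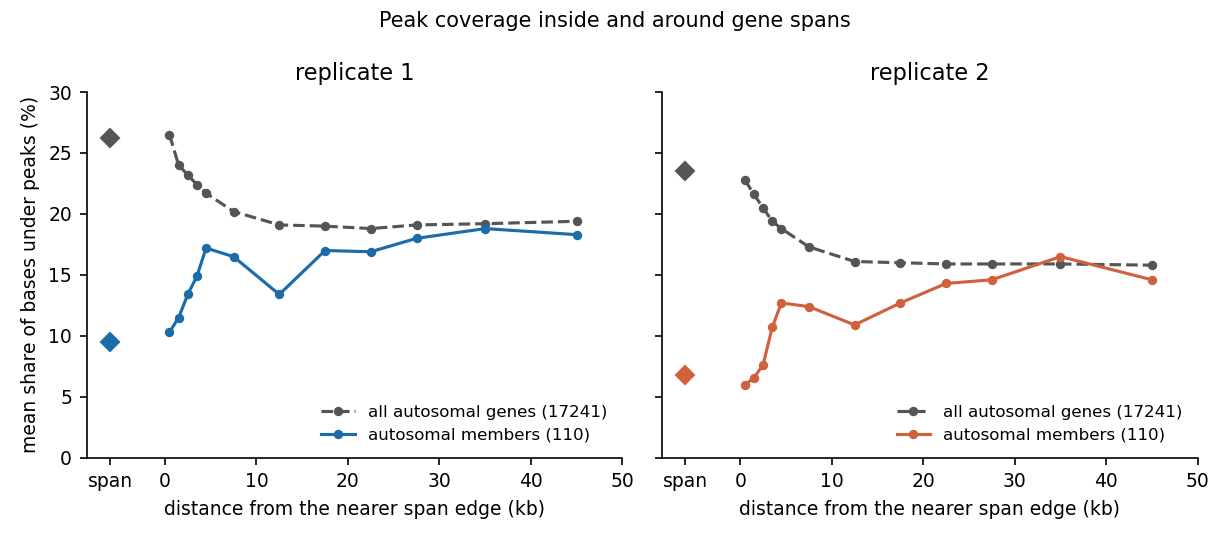
Mean percent of bases under peaks (y axis) in the gene span (diamonds) and in bins of distance from the nearer span edge in kb (x axis), both sides together, for the 110 autosomal peptide genes and all 17241 autosomal genes, in each replicate. In replicate 1 the peptide genes rise from 9.50% in the span to 18.3% at 40 to 50 kb while all genes fall from 26.2% to 19.4%, with a dip of the peptide genes at 10 to 15 kb in both replicates.

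Counted gene by gene, the classes differed in their surroundings, but many ins genes lie in tandem and share the same flanks. With 25 kb on each side taken as the surroundings, 20 of 36 autosomal ins genes had no peak there in replicate 1 (55.6%) and 21 in replicate 2 (58.3%). For flp genes the counts were 4 and 5 of 18 (22.2% and 27.8%), and for nlp genes 14 and 15 of 56 (25% and 26.8%), against 23.2% and 24.4% of all autosomal genes. The median distance from an autosomal ins gene to the nearest peak was 30.7 kb in replicate 1 and 33.1 kb in replicate 2. It was 7.71 and 12.4 kb for flp genes, 10.4 and 11.5 kb for nlp genes, and 5.55 and 5.36 kb for all autosomal genes. Genes in tandem are thus not separate observations of their surroundings. Peptide genes with at most 2 other genes between them were joined into groups, and 24 of the 36 autosomal ins genes fell into such groups. Of these 24, 16 and 18 had no peak within 25 kb, while of the 12 others 4 and 3 had none (33.3% and 25%). Of the 46 autosomal nlp genes outside such groups, 5 and 6 had none (10.9% and 13%), and all 18 autosomal flp genes lie outside them. The shares without a peak nearby were thus lower for ins and for nlp genes once tandem groups were left out. For ins genes they were then near the 22.2% and 27.8% of flp genes. The marked shares outside groups were 25% and 16.7% for ins, 11.1% and 16.7% for flp and 19.6% and 10.9% for nlp genes. The difference between the classes was not tested.

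**Figure D4:**
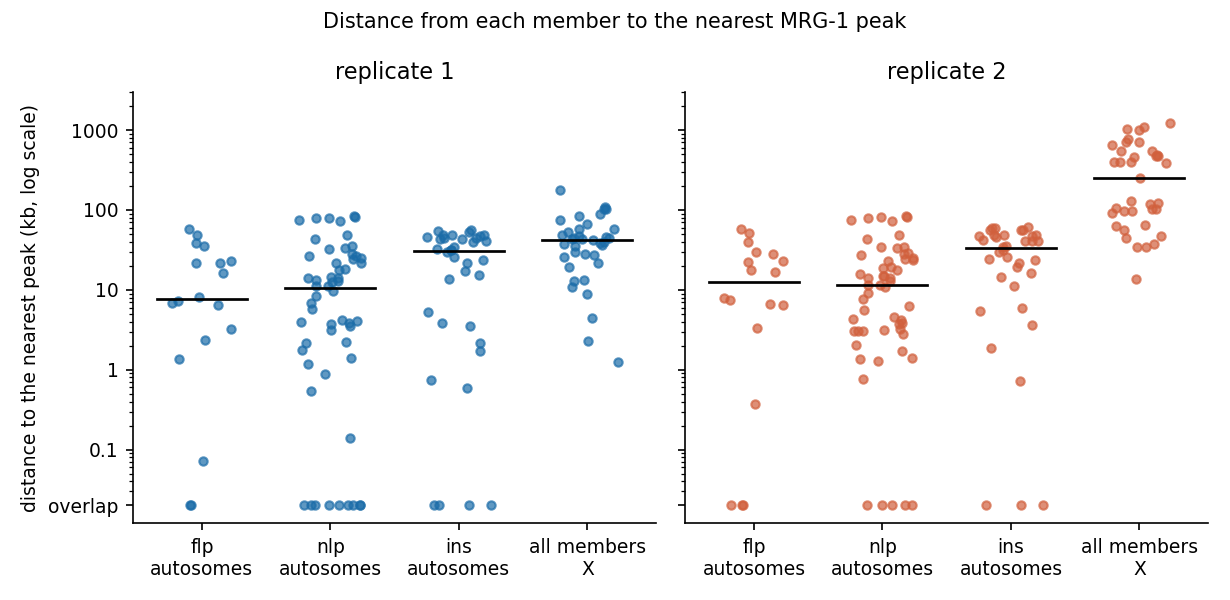
Distance from each peptide gene to the nearest peak in kb (y axis, log scale, with genes that overlap a peak drawn at the bottom) by class on the autosomes and for X, in each replicate; bars are medians. The autosomal ins genes have medians of 30.7 and 33.1 kb, above the 7.71 to 12.4 kb of the flp and nlp genes. Of the 36 autosomal ins genes, 24 lie in tandem groups and share surroundings. The genes on X lie farthest, with medians of 42.1 and 252 kb.

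There were 14 tandem groups with 46 peptide genes, some of them on X, where few genes of any kind were marked. On the autosomes the groups held 34 peptide genes, of which 1, ins-15, was marked in each replicate (2.94%). Of the 76 autosomal peptide genes outside groups, 14 and 10 were marked (18.4% and 13.2%), against 33.6% and 32.3% of all autosomal genes. Its neighbour ins-14 was 587 bp from a peak in replicate 1 and 730 bp in replicate 2. All 7 groups of 3 or more genes, 32 genes in all, were free of peaks in both replicates. The largest held 7 ins genes on I (ins-24 to ins-30), and its nearest peak was 40961 bp away in replicate 1 and 41192 bp in replicate 2. On II, ins-2 to ins-6 with ins-20 lay at least 34266 and 34995 bp from a peak. This group holds ins-4 and ins-6, whose products activate DAF-2 in the decision for reproductive growth. On V, nlp-27 to nlp-31 with nlp-34, a group that includes the antimicrobial peptide gene nlp-29 of the skin, lay at least 73410 and 73621 bp from a peak. On X, nlp-22, which promotes a sleep-like state, stood with nlp-2, nlp-23 and nlp-45, at least 37347 and 98383 bp away.

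Among widely studied peptide genes that met no peak in any list, distances varied from under 4 kb to over 100 kb. On the autosomes, flp-21, which encodes a ligand of the receptor NPR-1, lay 7204 bp from the nearest peak in replicate 1 and 7408 bp in replicate 2. The opioid-like gene nlp-24 lay at 3478 and 3886 bp. For ins-7, which encodes a DAF-2 agonist, the distances were 13627 and 14516 bp, and for ins-18, whose product opposes DAF-2, 17368 and 19300 bp. They were 42914 and 11138 bp for ins-1. The 25 kb on each side of ins-1 held no peak of replicate 1, while replicate 2 covered 13.3% of them. For ins-33 they were 3519 and 5898 bp, for ins-35 3901 and 48524 bp, and for nlp-8 11135 and 11393 bp. On X, flp-18, a ligand gene of NPR-4 and NPR-5, lay at 84015 and 97922 bp. The distances were 28507 and 34269 bp for flp-11, a gene of the sleep neuron RIS, and 25988 and 62866 bp for flp-8. They were 66571 and 994025 bp for nlp-3, which acts in egg laying. For nlp-49 they were 45227 and 47122 bp, and for ins-39 74582 and 90422 bp.

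Lists of genes that act with these peptides were counted in the same way. Of the genes for processing and release, 24 of the 25 listed were matched, and 9 were marked in replicate 1 (37.5%) and 8 in replicate 2 (33.3%). That is near the 30.2% and 28.1% of all genes, and below the 47.4% and 45.5% of autosomal genes of 4 kb and over, while the median span of the list is 5161.5 bp. The convertase gene egl-3, the chaperone gene sbt-1 and unc-31, which is needed for dense-core vesicle release, met no peak. The carboxypeptidase gene egl-21 was covered over 15.3% in replicate 1 and 0% in replicate 2, and the amidation gene pgal-1 over 14.9% and 9.28%. More was covered in vps-50 and eipr-1, genes of vesicle sorting, over 100% and 72.0% and over 39.5% and 35.5%. The convertase gene bli-4, which also acts on the cuticle, was covered over 41.2% and 33.7%, and the peptidase gene nep-1 over 48.9% and 38%. The Rab gene unc-108 was covered over 0% in replicate 1 and 78.3% in replicate 2.

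Peptide receptor genes resembled the peptide genes in their share. Of 109 matched receptor genes, 12 were marked in replicate 1 (11%) and 4 in replicate 2 (3.67%), against 30.2% and 28.1% of all genes. Their median span of 3745 bp is longer than the 903 bp of the peptide genes. Of all autosomal genes of 2 to 4 kb, 35.2% and 33.3% were marked. On the autosomes, 11 and 4 of 72 receptor genes were marked (15.3% and 5.56%), against 33.6% and 32.3% of all autosomal genes. The 4 marked in both were frpr-10, covered over 31.8% and 33.3%, frpr-21 over 33.7% and 28%, tkr-2 over 28.9% and 16.1%, and dmsr-4 over 4.28% and 0.573%. None of the 109 was covered over at least 50% of its span in either replicate, whereas 9 and 7 of the 147 peptide genes were. These counts were not matched for length. Of those peptide genes, 8 and 7 were under 1 kb, and no autosomal peptide gene of 2 kb or more was so covered. Over all autosomal genes the shares at this setting were 25.6% and 23.1%. Of the 37 receptor genes on X, 1 was marked, nmur-3, over 39.1% in replicate 1 and 0% in replicate 2. Among all X genes, 8.61% and 1.25% were marked. Of 10 other peptide hormone genes, tig-2, of the TGF-beta family, was covered over 13.1% in replicate 1, and the other 9, with the insulin-like daf-28 and the oxytocin-related ntc-1 among them, met no peak.

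Genes of a broad insulin signalling list were marked more often than the genes of the ligands, a difference that was not tested. Of 24 insulin signalling genes, 15 were marked in replicate 1 (62.5%) and 18 in replicate 2 (75%), against 4 and 3 of 38 ins genes (10.5% and 7.89%) and 30.2% and 28.1% of all genes. The list holds daf-28, a ligand, which met no peak. It also holds the TOR pathway genes let-363, daf-15, rheb-1 and rsks-1, each marked in both replicates, and regulators such as hsf-1, skn-1 and hcf-1. The shares are thus those of a broad list and not of the core pathway alone. In the core pathway, daf-2, daf-18, akt-1 and daf-16 were marked in both replicates. The gene par-5, which encodes a 14-3-3 protein, and rheb-1, a GTPase gene, were each covered over 100% in both replicates. The kinase gene akt-1 was covered over 100% and 97.9%. The receptor gene daf-2 was touched over 1.86% and 2.21% of its 46333 bp, and daf-16, the FOXO transcription factor gene, over 14.6% and 7.42%. In replicate 1, aap-1 and age-1, the subunits of the PI3 kinase, were covered over 0%, while in replicate 2 they stood at 100% and 28.9%. On X, pdk-1, ist-1, akt-2 and sgk-1 met no peak, and ftt-2 was covered over 100% in replicate 1 and 0% in replicate 2. These genes are long, with a median span of 6902.5 bp against 649 bp for the ins genes, and of all autosomal genes of 4 kb and over 47.4% and 45.5% were marked. By the stricter call of at least 50% of the span, 12 and 11 of the 24 were marked, against 3 and 3 of the 38 ins genes. Of all 19971 genes, 4531 and 4005 were marked at this setting, a mean of 21.4%.

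Genes of known place set the range of the lists. Of 36 germline genes, pgl-1, glh-1 and gld-1 among them, 31 were marked in replicate 1 (86.1%) and 32 in replicate 2 (88.9%). All 36 are autosomal, and 33.6% and 32.3% of all autosomal genes were marked. The glh-1 gene was covered over 100% in replicate 1 and 0% in replicate 2. Of 40 neuron genes, such as unc-13, snb-1 and rgef-1, 7 were marked in replicate 1 (17.5%) and 5 in replicate 2 (12.5%). Over all genes the shares were 30.2% and 28.1%, and 7 of the 40 neuron genes are on X. The peptide genes, at 10.2% and 7.48%, lay nearer to the neuron genes than to the germline genes, in spite of the longer median span of the neuron genes (6191 bp). On the autosomes alone the shares were 13.6% and 10.0% for peptide genes and 21.2% and 15.2% for neuron genes.

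**Figure D5:**
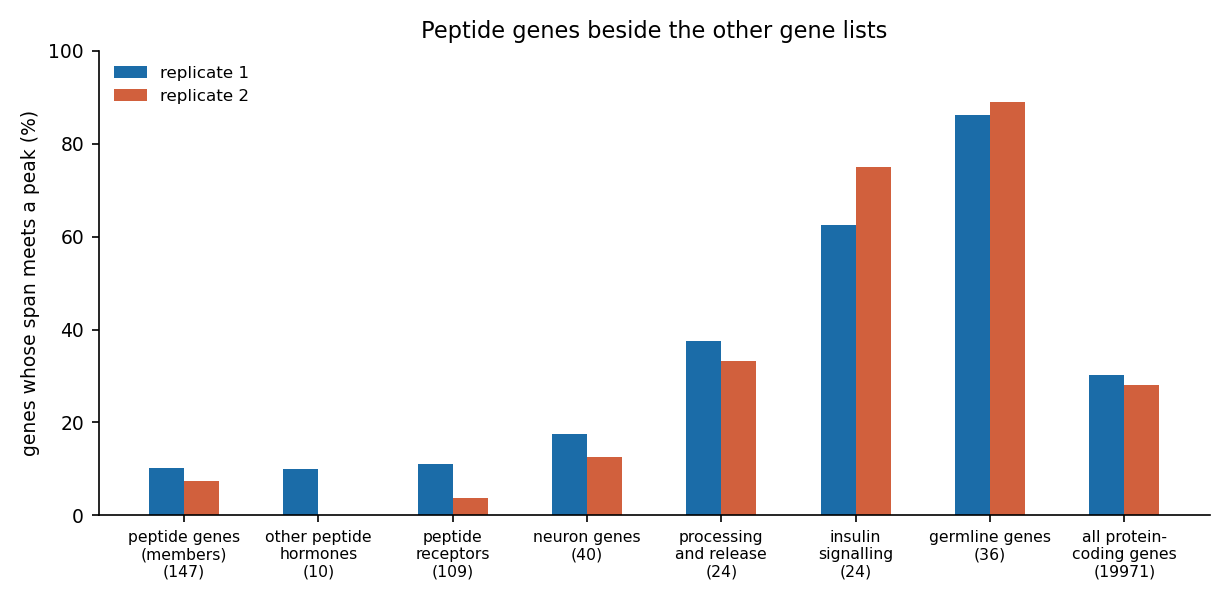
Percent of genes whose span met a peak (bars from 0, 1 per replicate) for the peptide genes, the lists of related genes, germline and neuron genes, and all protein-coding genes, with the number of genes in brackets. Peptide genes (10.2% and 7.48%), other peptide hormones and receptors are lowest, and insulin signalling (62.5% and 75%) and germline genes (86.1% and 88.9%) are above all genes (30.2% and 28.1%).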

How the data were processed

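Per the submitters' processing notes, the authors used BWA and the genome build ce10. Peaks were called with MACS for each replicate and with MACS v2 for the series-wide list, per the files' source column, and positions are on WormBase WS220, per the file headers. Tool versions, calling thresholds, any use of the input and any pooling were not given in the sources used here. Per the labels' protocols, chromatin was fixed with 1% formaldehyde for 10 minutes and sonicated. The score deposited by the authors for each peak is not defined in the files and served here to order peaks inside their own list.

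From these lists, the bases of each gene span under at least 1 peak, the distance to the nearest peak and the coverage of the 25 kb on each side were computed. Gene names, types and spans came from the RefSeq gene table of WBcel235, whose positions were not converted. That table gives no strand, so starts and ends of genes were not told apart. The code was tested on simulated data. Intervals are exact Clopper-Pearson at 95%. No p-value was computed. Nothing in the labels says that the replicates were separate cultures, so the SD covers these 2 samples alone. Genes were named by a fixed rule: those marked in both replicates, those marked in 1, and a list of widely studied members; other genes, named beside them because they lie under the same peak or in a list, were chosen after their values were seen, as were the tandem groups and the comparisons by adjacent and overlapping genes. The members and lists were chosen with earlier results of these data known. The work was done in Python 3.11.15 with scipy 1.17.1, pandas 2.3.3, numpy 2.4.6 and, for plots, matplotlib 3.10.9.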

Additional observations from a re-analysis of the deposited data

How the results depend on the processing

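The share of marked peptide genes stayed below that of all genes of the same chromosomes under all 12 alternatives for all chromosomes and all 12 for the autosomes, at 0.207 to 0.338 and 0.240 to 0.408 times that share. Over all chromosomes, against 8.84% in the main count, the share was 5.44% where at least 50% of the span had to be covered, 5.78% by the midpoint of the span, 5.22% without members that overlap another gene and 6.80% for marking in both replicates. On the autosomes, against 11.8%, these settings gave 7.27%, 7.73%, 6.82% and 9.09%. For flp genes, against 8.06%, the share was 1.61% at 50% of the span, 3.23% by the midpoint, 4.84% with the top 50% of peaks by score, 0% without members that overlap another gene and 3.85% with bases shared with another gene left out, an alternative added after the data were seen. For ins genes, against 9.21%, it was 5.88% without members that overlap another gene. Each of these settings can call no more genes than the main one or uses fewer genes. The nlp share moved by less than the replicate SD throughout, and the share on X was 0% under all 11 alternatives. Widening or narrowing spans by 200 bp gave 9.52% and 8.50% over all chromosomes. Leaving out a replicate gave 7.48% to 10.2% over all chromosomes and 10.0% to 13.6% on the autosomes. No paired analysis was possible because no values of the 2 input samples were used, which left ChIP as the sole group with values here. Depth is unknown, so whether more reads would mark more of these genes cannot be read from the lists.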

Other observations

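Some peptide genes shared a peak or bases with a gene for a peptide receptor or a peptidase. Whether their products act together was not examined. A replicate 1 peak at 9387075 to 9401477 of III met both nlp-48 and the receptor gene tkr-1, which was covered over 16.1% in replicate 1 and 0% in replicate 2. The spans of flp-33 and the nematocin receptor gene ntr-1 overlap, as do those of nlp-99 and the peptidase gene nep-2, and none of these 4 genes met a peak in either replicate.

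Some genes of the lists were marked in 1 replicate alone. Over all autosomal genes, 5.49% were marked in replicate 1 alone and 4.2% in replicate 2 alone. In the insulin signalling list, 18 genes were marked in replicate 2 and 14 in both. Those with 0% of the span in replicate 1 were aap-1, age-1, asna-1 and hcf-1, at 100%, 28.9%, 100% and 81.0% in replicate 2. The other way, ftt-2 had 100% and 0%. In the germline list, 31 and 32 genes were marked and 28 in both. Those with 0% in replicate 1 were deps-1, prg-1, puf-5 and mes-2, at 100%, 100%, 100% and 96.6% in replicate 2. The other way, glh-1 and glh-4 had 100% in replicate 1 and 0% in replicate 2, and him-8 85.7% and 0%. Of the peptide genes, flp-27 alone was marked in replicate 2 and not in replicate 1.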
